A study of Epinephelus fuscoguttatus x Epinephelus lanceolatus with 9 samples.

Results

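The intestines compared here were those of the SBM group and the FM group of pearl gentian grouper, a farmed cross of Epinephelus fuscoguttatus with Epinephelus lanceolatus. The comparison was set by the group labels and took 6 of the 9 RNA sequencing libraries of the series, 3 from the SBM group and 3 from the FM group. The other 3 libraries, from a group labelled Drug in a study of the herb Lithospermum erythrorhizon, entered the fit to share its estimate of spread and are not described. SBM and FM usually stand for soybean meal and fish meal in aquaculture, but the labels leave the letters unexplained and give no diet composition, feeding time, fish age or gut segment. The labels also do not state that each library came from its own fish, so a p-value here measures the spread between libraries, which may be technical. Sterol synthesis, fat oxidation and the cell cycle were set aside, and many, though not all, of the other gene classes are described.

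The fish intestine is lined by a single sheet of epithelium in which absorptive enterocytes carry a brush border of actin-filled microvilli, held in place by an apical polarity machinery and sealed by claudins and cadherins. Enterocytes take up amino acids, sugars, lipids, vitamins and metals through dedicated carriers, and in many fish a posterior stretch of enterocytes also takes in whole proteins and digests them in lysosomes. Goblet cells supply a glycosylated mucus coat, and leukocytes, a collagen-rich connective tissue and smooth muscle lie beneath.

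Total counts lay between 32.9 M and 35.5 M per library (M, 1e6 counts). Levels are given as CPM, the count per 1e6 counts of the library scaled by TMM factors, and all lists of 3 values run in order of replicate number. The tissue label was checked against 7 enterocyte markers, whose summed level was 5814, 2636 and 5127 CPM in the SBM libraries and 1997, 1475 and 3303 CPM in the FM libraries. Among them fabp2, an intracellular fatty acid carrier of enterocytes, had 2994, 782 and 2486 CPM in SBM and 719, 402 and 836 CPM in FM, and replicate 2 was the lowest library of each group. Hepatocyte markers told FM replicate 3 apart: the sum of 20 such genes was 133, 158 and 141 CPM in the SBM libraries and 80.6, 83 and 23129 CPM in the FM libraries, and 3 of the 20 were at 0 in FM replicate 1 and 3 in FM replicate 2. A set of 254 genes stood over 10-fold higher in FM replicate 3, at 5 CPM or more, than in any other library and took 9.20% of its counts, against at most 0.0350% elsewhere. The set was picked by that difference, so the contrast in share follows from the choice. These genes are called liver-restricted below, a name that rests on this rule and not on a comparison with liver tissue. Pancreatic enzyme transcripts were uneven within both groups, with a sum over 5 genes of 3146, 625 and 619 CPM in the SBM libraries and 253, 215 and 2298 CPM in the FM libraries.

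**Figure D1:**
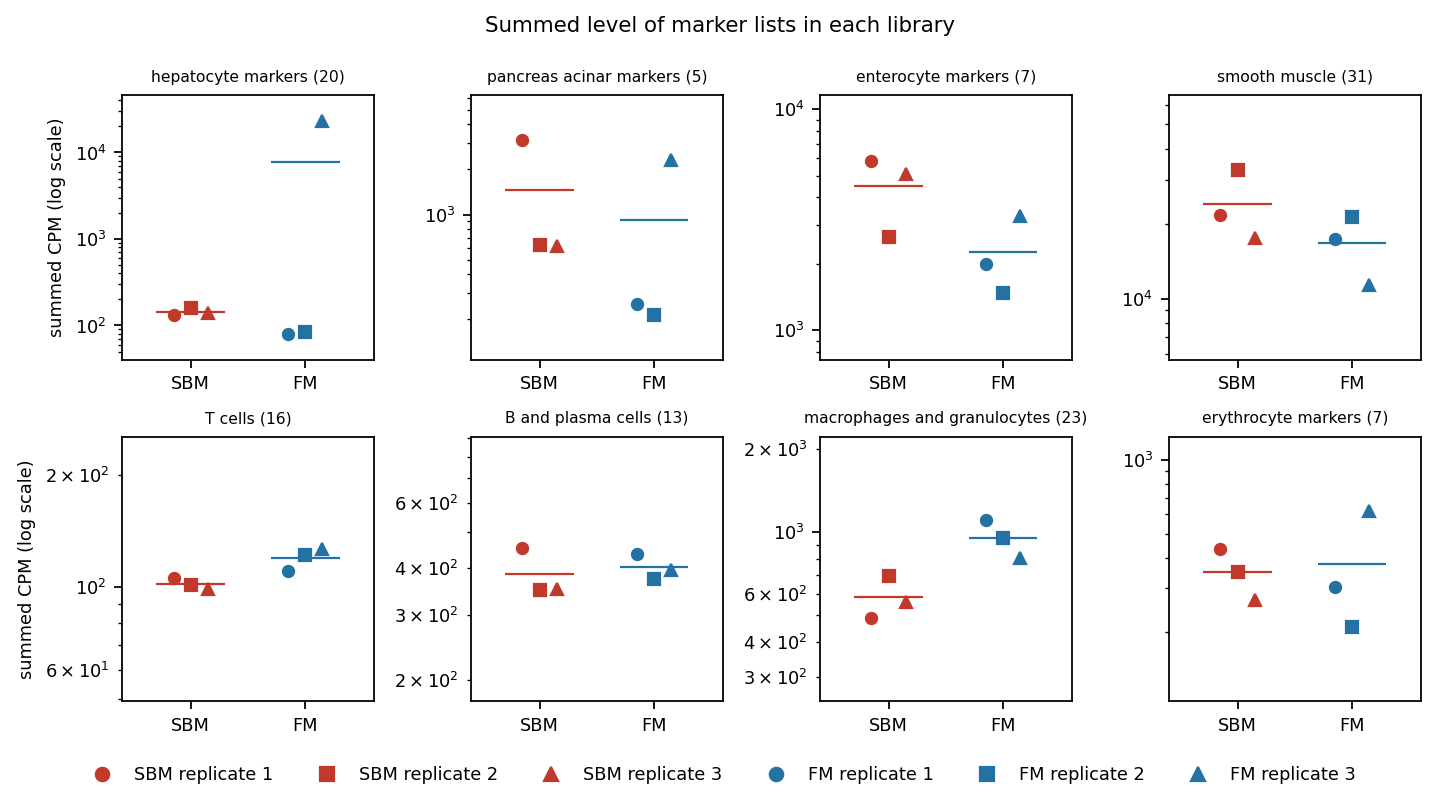
Summed CPM of 8 marker lists in each library, on a log scale, with SBM to the left of FM, the number of genes in each list in brackets and a bar at the arithmetic mean of each group. FM replicate 3 is far above the other libraries for hepatocyte markers, and SBM replicate 1 and FM replicate 3 are both high for pancreas markers.

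Genes with more transcript in the SBM intestine included myo15b and cldn15a of the epithelial cytoskeleton and junctions, folr, tcn2 and map1lc3b, and those with less included the insulin-signalling subunit pik3r1, the granulocyte growth factor csf3a and the splicing regulator rbm25a. Of 17731 genes tested, 79 rose in SBM, which is 0.446%, and 26 fell, which is 0.147%, making 105 in all or 0.592% (edgeR quasi-likelihood F test, Benjamini-Hochberg adjusted p under 0.05). All 105 had SBM libraries that did not overlap the FM libraries, and 87 differed more than 2-fold. Sterol synthesis and fat oxidation lists held 7 of the 65 genes with a symbol, which left 58, with 41 higher and 17 lower, and the remaining 40 carried only a LOC number. With the replicate number as a block 210 genes rose (1.18%) and 85 fell (0.479%), and 100 of the 105 passed. The pairing behind the block was read from these same counts, so blocked results are no independent support for a gene. No gene passed when only the SBM and FM libraries were fitted (2769 at an unadjusted p under 0.05, smallest adjusted p = 0.0592), while DESeq2 called 1637 genes (9.23%), so the number of genes past the threshold depended on the fit. Scaling by total count in place of TMM moved the median log2 fold change of all genes to -0.18 and gave 42 higher and 57 lower. Single libraries also mattered: 1 gene was higher and 1 lower without FM replicate 1, FM replicate 2 or SBM replicate 3, against 303 and 121 without SBM replicate 1 and 248 and 55 without SBM replicate 2.

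**Figure D2:**
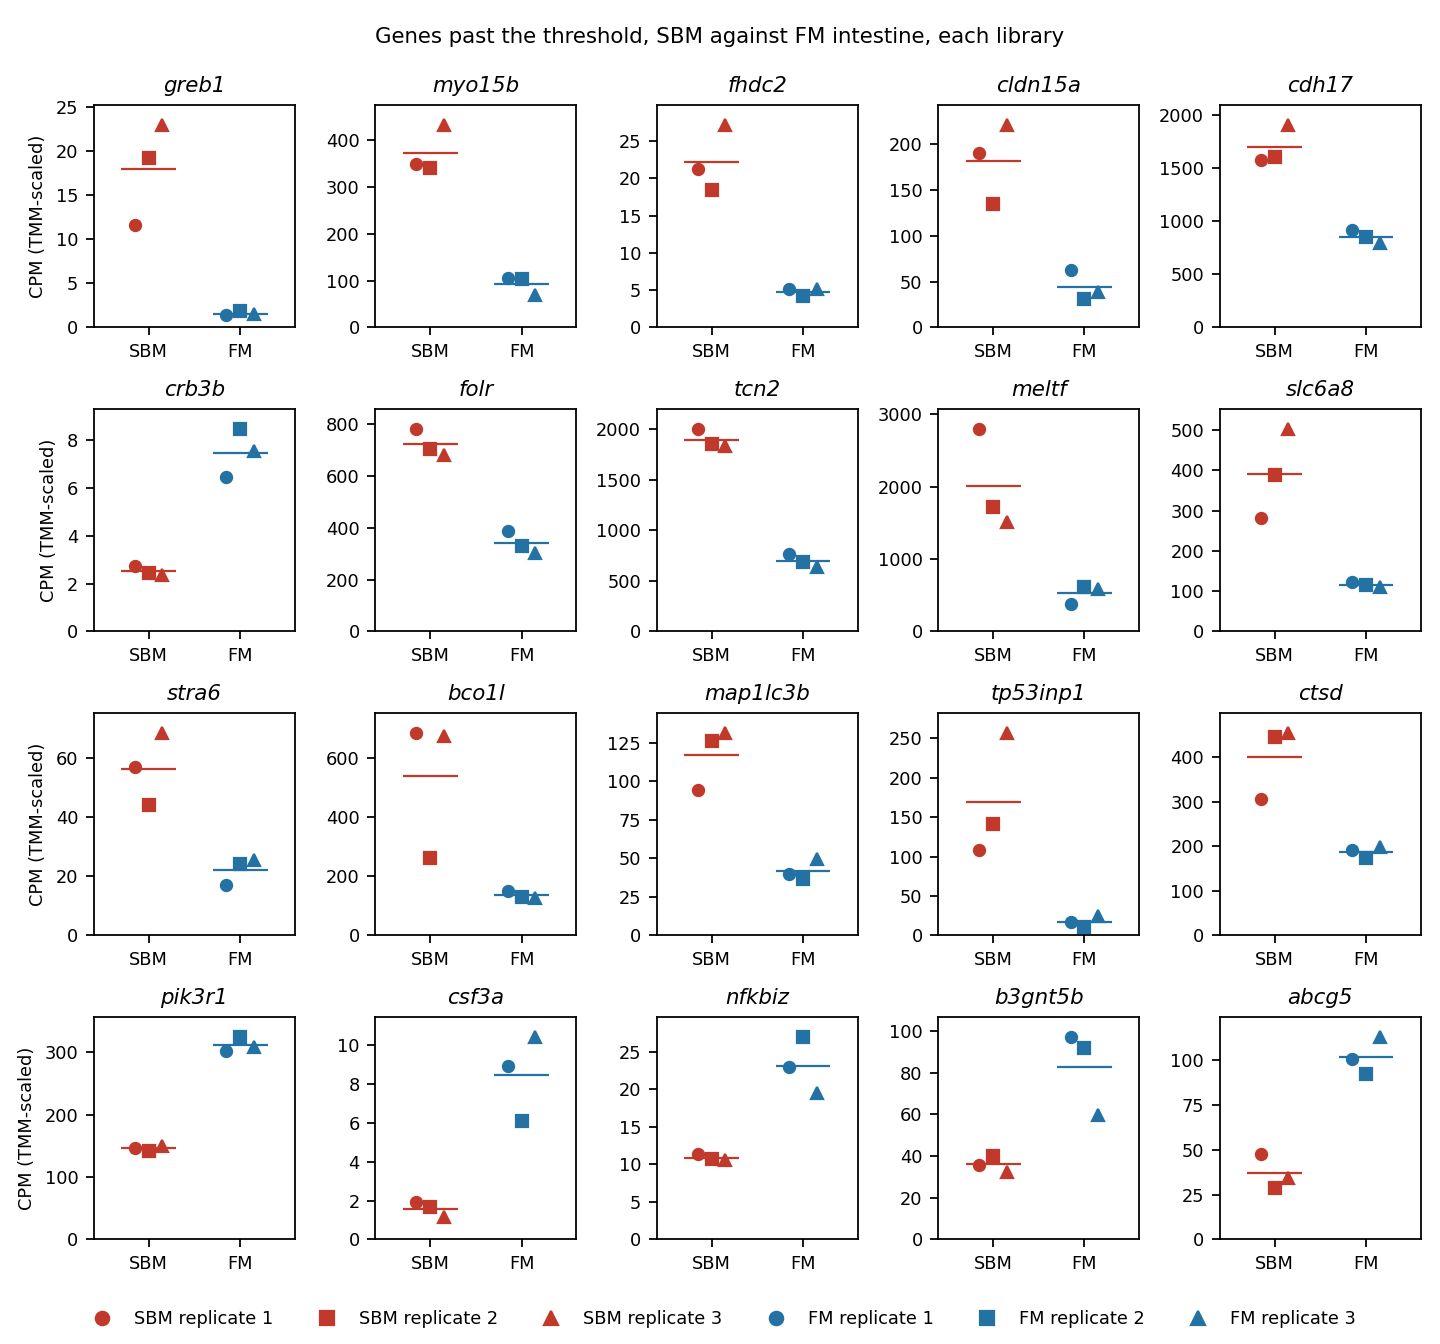
TMM-scaled CPM of 20 genes past the threshold in the 3 SBM libraries (left) and the 3 FM libraries (right), each point a library and each bar a group mean. The 2 groups are separate in every panel, with SBM above FM in 14 genes and below FM in crb3b, pik3r1, csf3a, nfkbiz, b3gnt5b and abcg5.

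Leaving out FM replicate 3 left the direction of all 105 genes as it was. Their non-overlapping groups had largely set that direction in advance, so it is no separate check. None of the 105 was among the liver-restricted genes, which the wide FM range of such genes had made likely in advance. The median absolute shift in log2 fold change was 0.0756 and the largest was 0.304. All 105 had an unadjusted p under 0.05 without that library. Choosing the 105 by a test on these same libraries favours small shifts and small p, so these values are no separate check either. The threshold was less stable: 17 genes rose (0.0945% of the genes tested) and 6 fell (0.0333%) in that fit, and 10 of these 23 were among the 105. The 10 were greb1, myo15b, si:dkey-192p21.6, map1lc3b, acadvl and LOC125893385 on the higher side and pik3r1, diras1b, b3gnt5b and LOC125902655 on the lower. The other 95 had an adjusted p of at most 0.0926 there, which the same choice of genes favours.

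**Figure D3:**
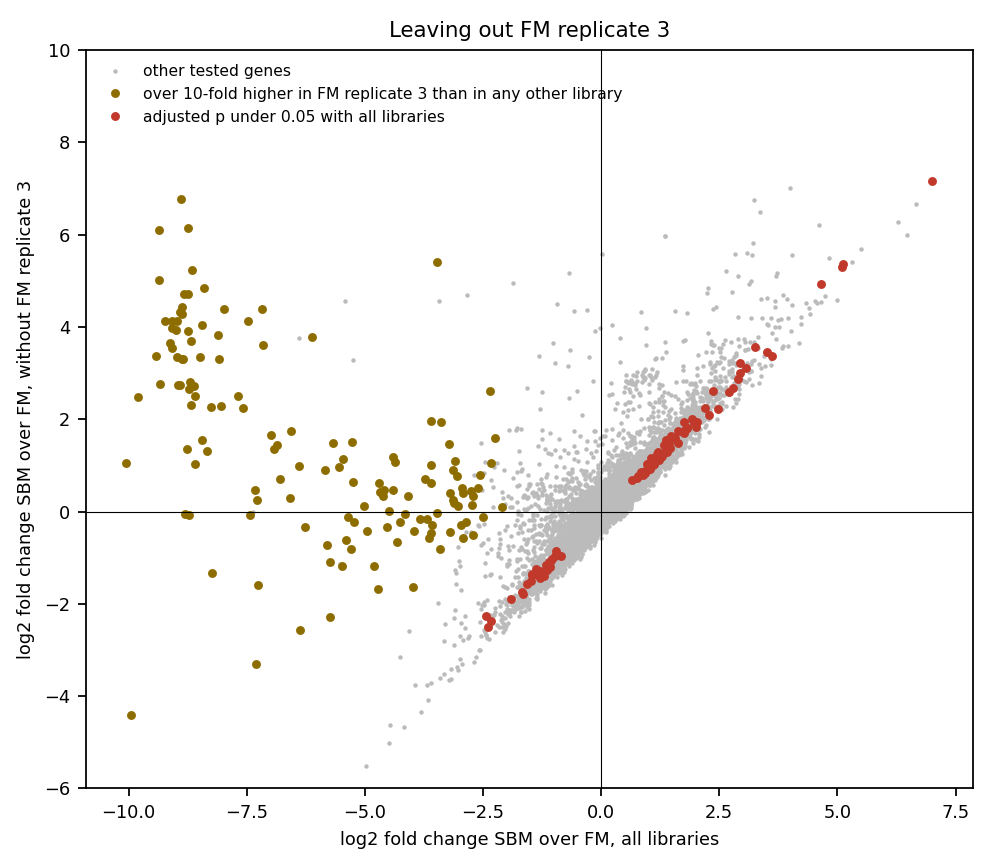
Log2 fold change of SBM over FM with all libraries (horizontal) against the same without FM replicate 3 (vertical), 1 point per tested gene. Genes past the threshold lie along a line, and the liver-restricted genes lie far to the left with all libraries and spread around and above 0 on the vertical axis.

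Of the 105 genes, 2 passed in each of the 9 fits that left out 1 library, greb1 and LOC125902655. Greb1, a hormone-induced growth regulator, had 11.6, 19.3 and 23 CPM in the SBM libraries, against 1.37, 1.87 and 1.50 CPM in the FM libraries (log2 fold change 3.50, SE 0.27, adjusted p = 0.00276). The SBM libraries differed among themselves, but the lowest was still far above the highest FM library. LOC125902655, a gene without a name in the table, ran the other way, with 14.3, 11.9 and 14.4 CPM in the SBM libraries, against 67.7, 84.9 and 59.5 CPM in the FM libraries (log2 fold change -2.39, SE 0.17, adjusted p = 0.00273). Of the 31 LOC genes that rose, the others with the smallest p were LOC125893385 (7.50-fold higher) and LOC125898372 (2.31-fold higher), and of the 9 that fell LOC125891424 was next (2.40-fold lower).

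Genes of the actin cytoskeleton, cell junctions and apical surface were among those that rose. Myo15b, an unconventional myosin, had 348, 340.3 and 432 CPM in the SBM libraries, against 106, 103 and 69.6 CPM in the FM libraries (log2 fold change 2.0, SE 0.24, adjusted p = 0.0283). The formin-domain gene fhdc2, whose family polymerizes actin, had 21.3, 18.4 and 27.1 CPM in the SBM libraries, against 5.14, 4.19 and 5.10 CPM in the FM libraries (log2 fold change 2.21, SE 0.26, adjusted p = 0.0283). Both were separated from FM by a wide gap. Cldn15a, a claudin that forms a cation-permeable seal between enterocytes, had 190.2, 135 and 221 CPM in the SBM libraries, against 63.2, 31.4 and 39.2 CPM in the FM libraries (log2 fold change 2.03, SE 0.29, adjusted p = 0.0298). The intestinal cadherin cdh17, which joins neighbouring enterocytes, had 1577, 1599 and 1899.7 CPM in SBM and 918, 848 and 797 CPM in FM and was 1.98-fold higher at an adjusted p of 0.0283. Rises were also seen in baiap2l2a, a membrane-bending protein (2.0-fold), in scinlb, a gelsolin-family actin severing protein (1.72-fold), and in tspan36, a tetraspanin (2.69-fold), at adjusted p of 0.0465, 0.0465 and 0.0312. The apical polarity gene crb3b fell, with 2.75, 2.47 and 2.35 CPM in SBM and 6.46, 8.46 and 7.54 CPM in FM (2.97-fold lower).

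Not all of these genes belonged to the lists below, and they were put together here after their values were seen. Most members of the lists did not pass. In the list of microvillus actin and apical polarity 2 of 56 tested genes rose and 1 fell, and 53 did not pass. For comparison, 0.446% of all tested genes rose and 0.147% fell. Its members lay above FM without overlap in 10 cases (17.9%) and below in 7 (12.5%), against 11.1% and 11.7% of all tested genes. The tight and adherens junction list gave 2 rises in 35 genes, with 7 (20%) above and 17.1% below without overlap. The epithelial adhesion gene epcam had 231, 119.8 and 124 CPM in SBM and 99.4, 64.7 and 48.7 CPM in FM (adjusted p = 0.125). Among brush border enzymes, treh, which splits trehalose, had 119, 89.8 and 97.1 CPM in SBM and 57.8, 67 and 53.6 CPM in FM, and si, which splits sucrose, had 850.2, 214 and 914 CPM in SBM and 92.9, 53.7 and 228 CPM in FM. Neither passed, at adjusted p of 0.0893 and 0.115. The si values of SBM replicate 2 and FM replicate 3 overlap, and replicate 2 was again the lowest library of each group. None of the 18 brush border hydrolases passed, and their median log2 fold change was 0.67, against 0.01 over all tested genes. Only 2 of the 18 (11.1%) lay above FM without overlap and 0 below, against 11.1% and 11.7% of all tested genes. For the 6 tested enterocyte markers, a list that names cdh17, the median was 1.33, and 2.27 without FM replicate 3. Of these 6 markers 1 (16.7%) lay above FM without overlap and 0 below. A larger share of enterocytes and more RNA per enterocyte cannot be told apart in this mixed tissue.

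Several single genes that bind or carry vitamins, iron or small nutrients also rose. Apart from slc5a11 they belonged to none of the 57 lists, and they were put together here after their values were seen. Folr, a folate receptor, had 779, 703 and 682 CPM in the SBM libraries, against 389, 329 and 301 CPM in the FM libraries (log2 fold change 1.09, SE 0.15, adjusted p = 0.0283). Tcn2, the plasma carrier of vitamin B12, had 1995, 1855 and 1832 CPM in the SBM libraries, against 766, 687 and 638 CPM in the FM libraries (log2 fold change 1.44, SE 0.23, adjusted p = 0.0382). For both genes the SBM libraries lay close together and far above FM. Stra6, the membrane receptor for retinol-binding protein, had 57.1, 44.2 and 68.5 CPM in SBM and 17.2, 24.3 and 25.5 CPM in FM, and bco1l, a relative of the enzyme that cleaves carotene to retinal, had 685, 261 and 675 CPM in SBM and 150.0, 131 and 127 CPM in FM. They were 2.53-fold and 3.97-fold higher, and bco1l was much lower in SBM replicate 2 than in the other SBM libraries. Melanotransferrin (meltf), an iron-binding protein, had 2791, 1726 and 1516 CPM in the SBM libraries, against 379, 616 and 584 CPM in the FM libraries (log2 fold change 1.93, SE 0.26, adjusted p = 0.0283). The creatine transporter slc6a8 had 281, 389 and 502 CPM in the SBM libraries, against 123, 116 and 110.5 CPM in the FM libraries (log2 fold change 1.75, SE 0.24, adjusted p = 0.0283). Slc5a11, a sodium-coupled inositol carrier, was 1.96-fold higher and slc49a4, a lysosomal membrane carrier, 3.07-fold higher, at adjusted p of 0.0465 and 0.0330.

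Most other carriers did not pass. Of 70 tested sugar, vitamin, nucleoside and metal transporters 1 rose (slc5a11) and none fell, with 11.4% above and 11.4% below without overlap, close to the 11.1% and 11.7% of all genes. Calls over all tested genes were 0.446% higher and 0.147% lower, and 1.18% and 0.479% with the replicate block. With the replicate block 4 of these 70 transporters rose, adding slc31a1, a copper importer (745, 539 and 792 CPM in SBM and 372, 264 and 319 CPM in FM, blocked adjusted p = 0.0211), slc19a3a, a thiamine carrier (blocked adjusted p = 0.0410), and slco2a1, a prostaglandin carrier (blocked adjusted p = 0.0484). None of 39 amino acid and peptide transporters passed, and the median log2 fold change of that list was -0.32 with all libraries, -0.17 without FM replicate 3 and -0.13 without FM replicate 1. The summed level was 8113, 4238 and 5407 CPM in the SBM libraries and 4868, 4233 and 4044 CPM in the FM libraries, with SBM replicates 1 and 3 above every FM library and SBM replicate 2 within the FM range. Of the list 5.13% lay above FM without overlap and 10.3% below, against 11.1% and 11.7% of all tested genes. Its member slc7a9, a cystine and dibasic amino acid carrier subunit, had 1.95, 3.67 and 1.88 CPM in SBM and 6.32, 11.8 and 11 CPM in FM (adjusted p = 0.106), with every SBM library below every FM library.

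Genes of self-digestion rose as well. Map1lc3b, which coats the autophagosome membrane, had 94.3, 126 and 131 CPM in the SBM libraries, against 39.6, 36.4 and 49.4 CPM in the FM libraries (log2 fold change 1.49, SE 0.19, adjusted p = 0.0283). Tp53inp1, a p53 target that also takes part in autophagy, had 108, 142 and 256 CPM in the SBM libraries, against 17.3, 11.2 and 24.2 CPM in the FM libraries (log2 fold change 3.26, SE 0.52, adjusted p = 0.0426). In both the SBM libraries exceeded FM, and the range within SBM was wide for tp53inp1. The autophagy-initiating kinase ulk1b had 82.8, 71.7 and 98.6 CPM in SBM and 29.1, 23 and 42.5 CPM in FM, which missed the threshold at an adjusted p of 0.0513 and passed with the block at 0.0156. Of 40 autophagy genes 2 rose and none fell, where 0.446% of all tested genes rose and 0.147% fell. In the same list 35.0% lay above FM without overlap and 2.50% below (against 11.1% and 11.7% of all tested genes), and the median log2 fold change was 0.40. A member that ran the other way was atg4da, a protease that processes the LC3 family, with 42.9, 31 and 38.6 CPM in SBM and 81.8, 74.1 and 55 CPM in FM (adjusted p = 0.0670). Cathepsin D (ctsd), a lysosomal protease, had 306, 444 and 453 CPM in SBM and 191, 174 and 198 CPM in FM and was 2.14-fold higher, while the 64 other genes of the list of lysosomes and protein-absorbing enterocytes did not pass (median 0.01). The summed level of that list was 18456, 43463 and 28718 CPM in the SBM libraries and 39871, 36004 and 33347 CPM in the FM libraries, with SBM replicate 1 lowest.

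The proteasome, which degrades tagged proteins, had no gene past the threshold among 46. In 15 of them (32.6%) all SBM libraries exceeded all FM libraries, and in 0 they were all below, against 11.1% and 11.7% of all tested genes. Its inhibitor psmf1 had 50.8, 49.4 and 44.9 CPM in SBM and 32.4, 30.6 and 31.5 CPM in FM (adjusted p = 0.0574, and 0.0484 with the block), and the catalytic-core subunit psmb4 had 139, 129 and 149 CPM in SBM and 95.3, 73.2 and 93.8 CPM in FM (adjusted p = 0.0988). The median log2 fold change was 0.27, and 0.35 without FM replicate 3.

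Redox genes contributed 2 rises among 52 tested, where 0.446% of all tested genes rose. Glutathione reductase (gsr) had 129, 149 and 149 CPM in the SBM libraries, against 85.4, 79.2 and 67.3 CPM in the FM libraries (log2 fold change 0.88, SE 0.15, adjusted p = 0.0426), and mgst3a, a membrane-bound glutathione transferase, had 208, 185 and 246 CPM in SBM and 121, 90.3 and 102 CPM in FM (2.04-fold higher, adjusted p = 0.0426). The remaining 50 antioxidant and glutathione genes did not pass, and 26.9% of the list lay above FM without overlap and 9.62% below, against 11.1% and 11.7% of all tested genes. Its near copy mgst3b had 135, 103 and 192 CPM in SBM and 55.1, 30.4 and 77.5 CPM in FM (adjusted p = 0.0875), and reads of such pairs may be shared. Nudt9, which hydrolyses ADP-ribose, was 1.88-fold higher.

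The respiratory chain had the largest share of separated genes among the 57 classes. Its list held nuclear genes with symbols of complex I, succinate dehydrogenase and ATP synthase, some of them assembly factors. No member had a symbol beginning with cox or uqcr, which are usual for complexes IV and III. A symbol such as ndufa4a does not by itself settle the complex. Of these 70 genes none passed. Yet 45 (64.3%) were higher in every SBM library than in any FM library and 1 (1.43%) was lower, against 11.1% and 11.7% of all tested genes. The complex I subunit ndufv1 had 135, 149 and 146 CPM in SBM and 92.2, 98.8 and 91 CPM in FM (adjusted p = 0.0723) and the succinate dehydrogenase subunit sdhc had 64.6, 62.3 and 63.7 CPM in SBM and 45.2, 38 and 41.4 CPM in FM (adjusted p = 0.0718). The narrow SBM and FM ranges did not meet in either gene. The 13 genes encoded in mitochondrial DNA did not share this pattern. None was separated in either direction, and their median log2 fold change was -0.17 with all libraries and 0.02 without FM replicate 3. ND5, for instance, had 267, 585 and 396 CPM in SBM and 684, 532 and 652 CPM in FM. Pdk2a, a kinase that switches off pyruvate dehydrogenase, had 32.5, 43 and 32 CPM in SBM and 8.24, 8.86 and 14.7 CPM in FM at an adjusted p of 0.0501 (0.0328 with the block).

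No gene of the ribosome or of its assembly passed. Cytosolic ribosomal protein genes had positive log2 fold changes in 75 of 81 cases, and ribosome biogenesis genes in 6 of 75. Medians were 0.15 and -0.24, none of the 156 genes passed, and the biogenesis median ran from -0.53 (without SBM replicate 1) to -0.04 (without SBM replicate 2) when 1 SBM or FM library was left out. With all libraries 9.33% of the biogenesis genes lay below FM without overlap and 0 above, against 11.7% and 11.1% of all tested genes, so the share below was no higher than over all genes. Their sum was 3265, 2138 and 2351 CPM in the SBM libraries and 3117, 2805 and 2685 CPM in the FM libraries, with SBM replicate 1 the highest library of both groups. The sum of the ribosomal protein genes was 96264, 108107 and 100428 CPM in the SBM libraries and 84841, 90381 and 98868 CPM in the FM libraries, so FM replicate 3 fell within the SBM range. Among ribosomal protein genes 23.5% lay above FM without overlap with all libraries and 0 below, against 11.1% and 11.7% of all tested genes. Without FM replicate 3 the SBM libraries exceeded the other 2 FM libraries in 79.0% of the ribosomal protein genes, against 17.3% of all tested genes. They fell below those 2 libraries in 21.3% of the biogenesis genes, against 17.0%. Rplp0, a stalk protein of the large subunit, had 2629.6, 2811 and 2850.0 CPM in SBM and 2004, 1994 and 2529 CPM in FM (adjusted p = 0.182), and polr1d, a subunit of RNA polymerases I and III, had 7.30, 8.64 and 9.0 CPM in SBM and 15.7, 12.4 and 12.4 CPM in FM (adjusted p = 0.0934). Scaling by total count in place of TMM moved the median of all genes to -0.18, and measured from that median the ribosomal protein genes stood at 0.15 and the biogenesis genes at -0.26. On that scale without this step the ribosomal protein median turned negative (-0.02).

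**Figure D4:**
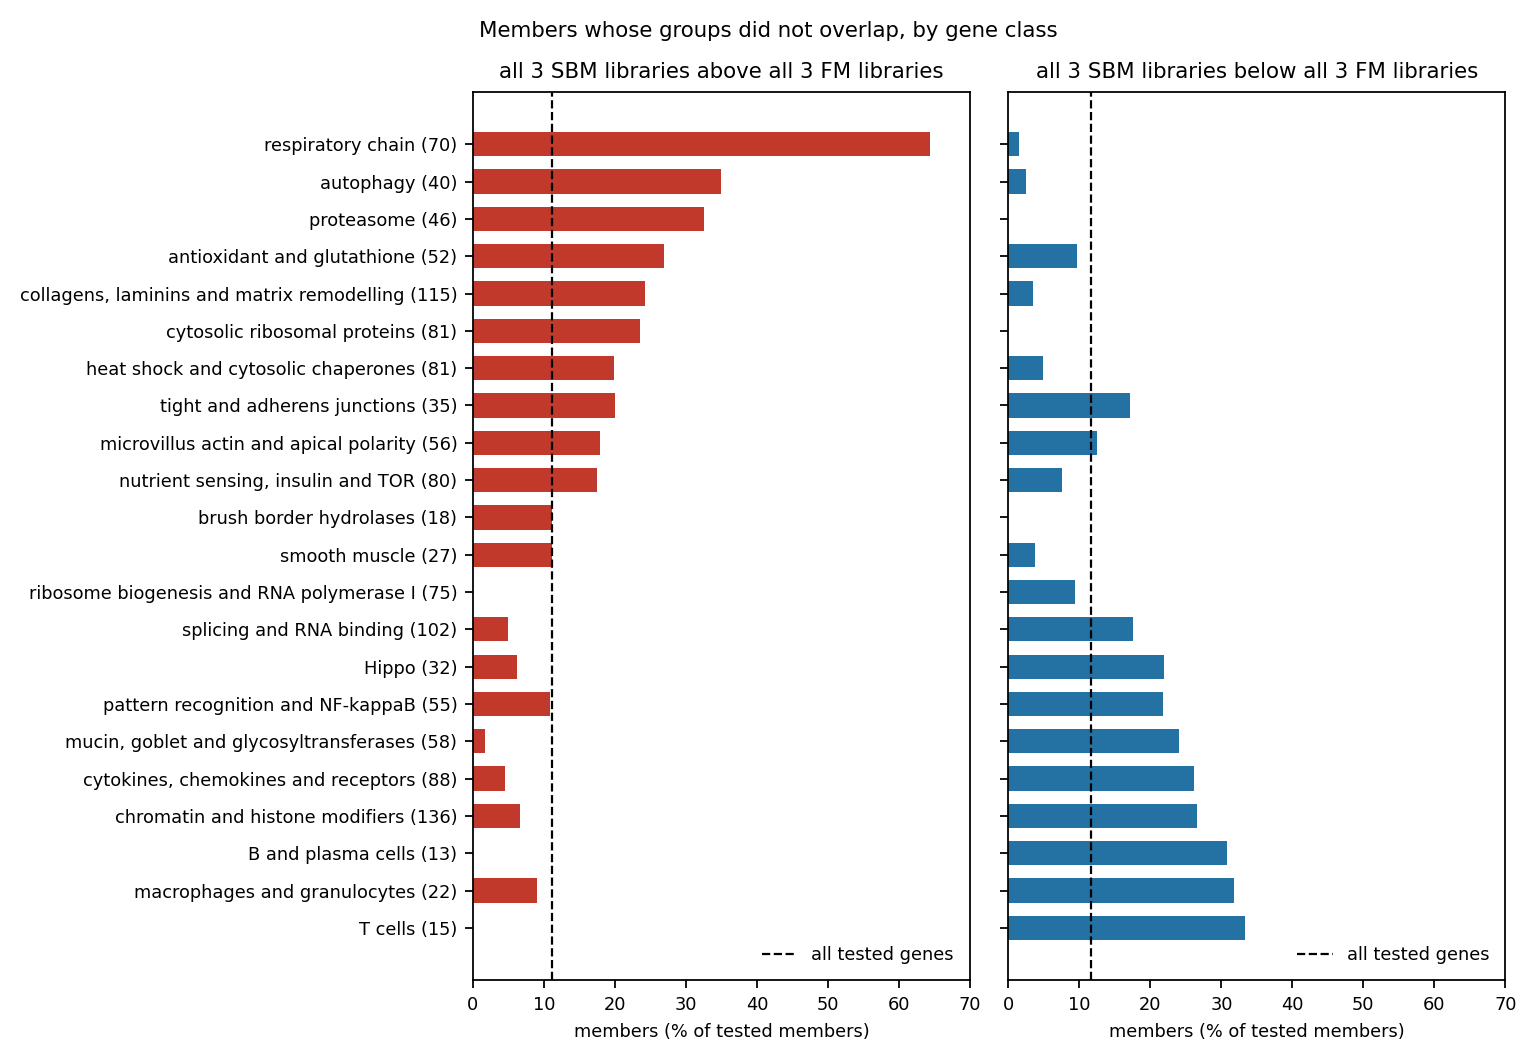
Share of tested members of 22 gene classes (number in brackets) whose 3 SBM libraries were all above (left) or all below (right) the 3 FM libraries, with the share over all tested genes as a dashed line. Respiratory chain genes reach 64.3% on the left, and chromatin, cytokine and leukocyte lists exceed the line on the right. The 22 classes are a selection from lists that were chosen with earlier results of these data known. They do not show how common a departure from the line is among all lists. Some lists lay near it, such as the ubiquitin list with 11.4% above and 11.4% below.

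Some nuclear and RNA-processing genes fell. Rbm25a, an RNA-binding splicing regulator, had 35, 25.4 and 27.5 CPM in the SBM libraries, against 53.6, 60.7 and 59 CPM in the FM libraries (log2 fold change -0.98, SE 0.16, adjusted p = 0.0403), and its copy rbm25b had 41.1, 29.2 and 32 CPM in SBM and 55.8, 65.3 and 62.8 CPM in FM (adjusted p = 0.0540). Pnisr, a splicing-associated gene, was 2.04-fold lower, uspl1, a SUMO protease, 2.25-fold lower and crebzf, a bZIP protein, 2.12-fold lower. Of 102 splicing and RNA-binding genes 1 fell and none rose, where 0.147% of all tested genes fell and 0.446% rose. In that list 17.6% lay below FM without overlap against 4.90% above. The chromatin and histone modifier list of 136 genes had no call, with 36 (26.5%) below FM and 9 (6.62%) above. Over all tested genes these shares were 11.7% below and 11.1% above. The DNA methyltransferase dnmt3bb.1 had 24.6, 22.3 and 19.2 CPM in SBM and 46.6, 36.3 and 29.7 CPM in FM, at an adjusted p of 0.104 and, with the block, 0.0360. The remodelling helicase chd2 had 69.9, 61.2 and 63 CPM in SBM and 93.2, 123 and 88.1 CPM in FM (adjusted p = 0.112).

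In signalling, pik3r1, the regulatory subunit of phosphoinositide 3-kinase, fell in a tight pattern, with 146, 142 and 149 CPM in the SBM libraries, against 301, 323 and 309 CPM in the FM libraries (log2 fold change -1.09, SE 0.13, adjusted p = 0.0283). Each group stayed within a narrow range. It was the single call among 80 genes of nutrient sensing, insulin and TOR. Over all tested genes 0.446% rose and 0.147% fell. Of that list 17.5% lay above FM without overlap and 7.5% below, against 11.1% and 11.7% of all tested genes. The insulin receptor substrate irs2b had 29.6, 24.5 and 29.1 CPM in SBM and 13.2, 10.8 and 15.4 CPM in FM (adjusted p = 0.0787). Of 32 Hippo pathway genes 1 rose and 1 fell: yap1, the pathway's transcriptional co-activator, had 24.3, 32.4 and 28.1 CPM in SBM and 14.3, 11.2 and 15.3 CPM in FM, and wwc1, an upstream activator, had 12.5, 12.2 and 14.7 CPM in SBM and 31.5, 31.3 and 24.2 CPM in FM, at adjusted p of 0.0426 and 0.0414. Of the Hippo list 6.25% lay above FM without overlap and 21.9% below. The Ras-family gene diras1b was 3.12-fold lower, the G-protein gamma subunit gng12a 2.62-fold higher and the Arf-like GTPase arl4aa 2.21-fold higher. Klf4, a transcription factor of differentiating epithelium, had 126, 35.6 and 85.2 CPM in the SBM libraries, against 15, 10.5 and 9.78 CPM in the FM libraries (log2 fold change 2.80, SE 0.44, adjusted p = 0.0382), and SBM replicate 2 was the lowest of that group.

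The genes of the immune lists that passed the test fell in SBM. Outside those lists lta4h, which makes a leukotriene, passed and rose. Csf3a, a growth factor of granulocytes, had 1.91, 1.67 and 1.13 CPM in the SBM libraries, against 8.95, 6.12 and 10.4 CPM in the FM libraries (log2 fold change -2.43, SE 0.34, adjusted p = 0.0298). Nfkbiz, an atypical IkappaB protein, had 11.4, 10.7 and 10.5 CPM in the SBM libraries, against 23, 26.9 and 19.5 CPM in the FM libraries (log2 fold change -1.09, SE 0.17, adjusted p = 0.0371). Neither gene's groups overlapped. In the list of 88 cytokines, chemokines and receptors 1 fell and none rose, where 0.147% of all tested genes fell and 0.446% rose. Of these 88 genes 23 (26.1%) were below FM without overlap and 4 (4.55%) above, where all tested genes had 11.7% below and 11.1% above. The interleukin receptor gene il12rb1 had 2.47, 2.73 and 2.44 CPM in SBM and 4.73, 7.41 and 5.69 CPM in FM (adjusted p = 0.0522, blocked 0.0435). Of 55 pattern recognition and NF-kappaB genes 1 fell, with 21.8% below and 10.9% above. None of 34 interferon response and antigen presentation genes passed, with 14.7% below and 11.8% above.

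The part of leukocyte markers in this result was not tested, and their values are as follows. None of the 15 T cell, 13 B and plasma cell and 22 macrophage and granulocyte markers tested passed. Shares below FM without overlap were 33.3%, 30.8% and 31.8%, against 11.7% of all tested genes, and shares above were 0, 0 and 9.09%, against 11.1%. Medians were -0.48, -0.64 and -0.34 with all libraries, and -0.32, -0.61 and -0.17 without FM replicate 3. The T cell median ran from -0.92 (without SBM replicate 2) to -0.22 (without SBM replicate 1) when 1 SBM or FM library was left out. The B cell kinase btk had 7.54, 12 and 9.11 CPM in SBM and 19.4, 19.96 and 18.4 CPM in FM (adjusted p = 0.0546, blocked 0.0346), and the B cell receptor chain cd79a had 3.68, 8.53 and 6.94 CPM in SBM and 9.30, 19.5 and 11.7 CPM in FM (adjusted p = 0.214, blocked 0.0492). The pan-leukocyte phosphatase ptprc had 58, 77.6 and 67.5 CPM in SBM and 85.4, 118 and 106 CPM in FM. The matrix protease mmp9, abundant in granulocytes, had 2.71, 2.07 and 1.85 CPM in SBM and 17.8, 6.30 and 3.54 CPM in FM. Summed, the macrophage and granulocyte markers came to 489, 693 and 561 CPM in the SBM libraries and 1110.3, 951 and 810.0 CPM in the FM libraries, and the T cell markers to 106, 102 and 98.7 CPM in the SBM libraries and 110.4, 122 and 127 CPM in the FM libraries, both without overlap, while the B and plasma cell sum overlapped, at 453, 351 and 352 CPM in the SBM libraries and 437, 375 and 396 CPM in the FM libraries. In tissue of mixed cells, fewer cells of a type and less RNA per cell cannot be told apart.

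A glycosylation gene fell as well. B3gnt5b, which adds N-acetylglucosamine to glycolipids, had 35.6, 40.3 and 32.4 CPM in the SBM libraries, against 97, 92 and 59.5 CPM in the FM libraries (log2 fold change -1.20, SE 0.20, adjusted p = 0.0426). It passed again without FM replicate 3, at an adjusted p of 0.0354. Of 58 mucin, goblet and glycosyltransferase genes it was the single one to fall and none rose, where 0.147% of all tested genes fell and 0.446% rose. Without overlap 24.1% lay below FM and 1.72% above, against 11.7% below and 11.1% above over all tested genes. C1galt1a, which builds the core of mucin sugar chains, had 30.1, 27.2 and 24.9 CPM in SBM and 53.4, 64.4 and 35.7 CPM in FM (adjusted p = 0.0999). Gltpa, a glycolipid transfer protein, was 5.02-fold lower at levels under 2 CPM. The membrane mucin muc3a ran against the list, with 199, 74.9 and 119.8 CPM in SBM and 75.7, 49.4 and 49.6 CPM in FM (adjusted p = 0.120).

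In the matrix list no gene passed, and in the smooth muscle list 1 of 27 rose, where 0.446% of all tested genes rose. None of 115 collagen, laminin and matrix remodelling genes passed, and 24.3% lay above FM without overlap and 3.48% below, against 11.1% and 11.7% of all tested genes. Col6a3, a collagen VI chain, had 309, 248 and 256 CPM in SBM and 189, 171 and 179 CPM in FM (adjusted p = 0.0863), and thbs4a, a thrombospondin, had 15.9, 13.4 and 11.1 CPM in SBM and 7.0, 6.35 and 3.77 CPM in FM (adjusted p = 0.0563, blocked 0.0410). The median was 0.15 with all libraries and 0.35 without FM replicate 3. With total-count scaling it was -0.02, where the median of all genes was -0.18. Among 27 smooth muscle genes casq2, a calcium store protein, rose, with 10.4, 8.56 and 11.1 CPM in SBM and 4.84, 2.93 and 3.21 CPM in FM (adjusted p = 0.0426). Of the 27 genes 11.1% lay above FM without overlap and 3.7% below, against 11.1% and 11.7% of all tested genes. Summed smooth muscle markers were 21692, 32839.8 and 17534 CPM in the SBM libraries and 17385, 21332 and 11400.1 CPM in the FM libraries, so the groups overlapped. SBM replicate 2 was the highest library while FM replicate 3 was the lowest. Outside that list, myot, a sarcomere protein, and mustn1a, a small muscle-associated protein, were 1.96-fold and 1.90-fold higher.

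**Figure D5:**
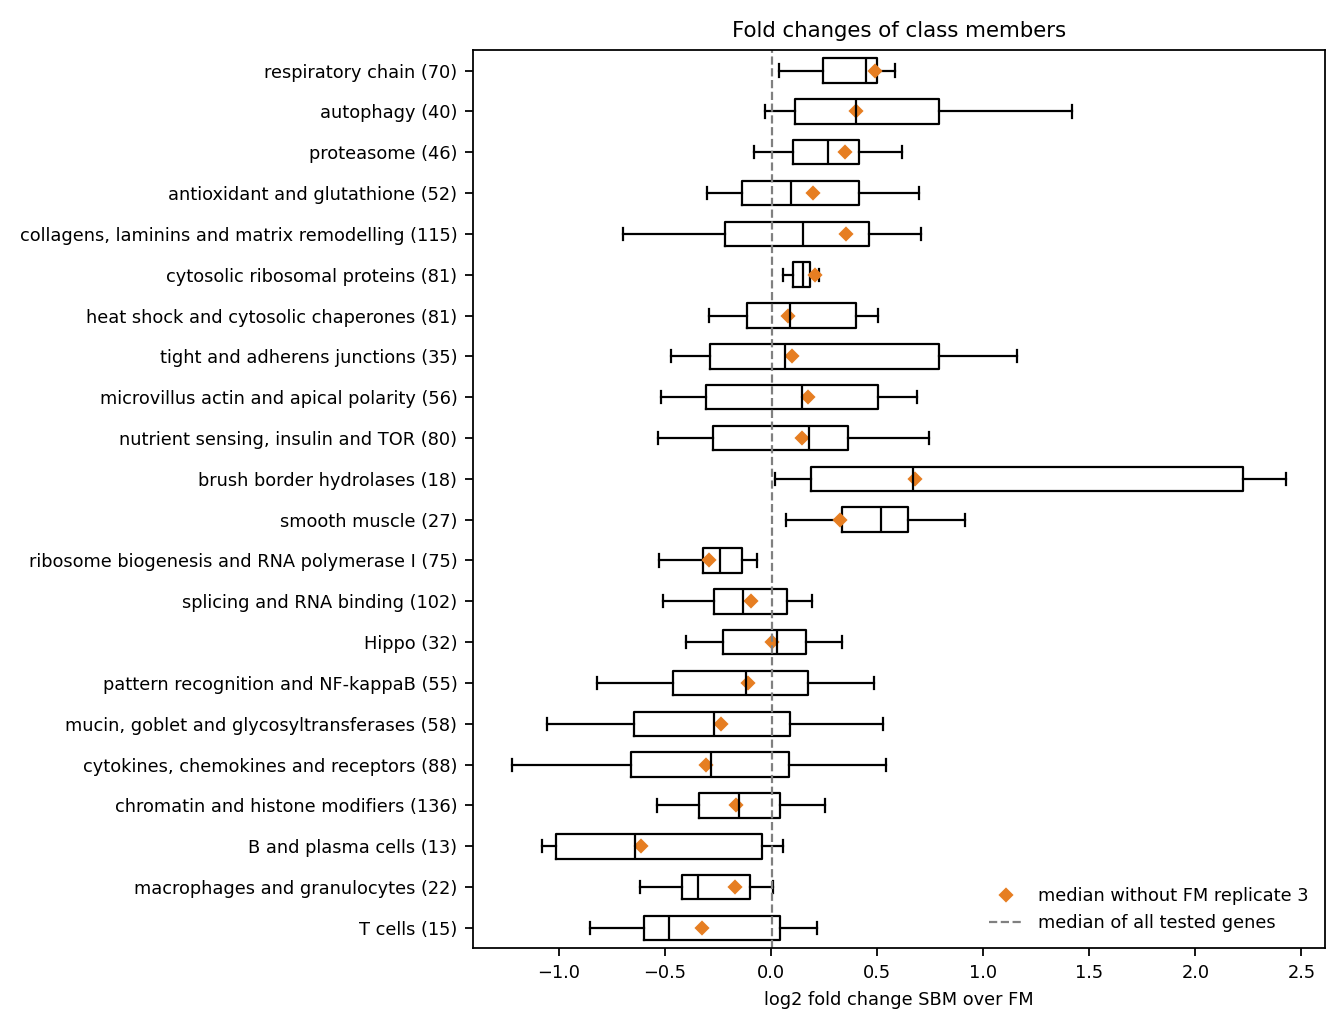
Log2 fold change of SBM over FM for tested members of 22 classes: boxes span the quartiles, the line is the median, whiskers reach the 10th and 90th percentiles and diamonds give the median without FM replicate 3. Ribosomal protein genes lie just right of the all-gene median and ribosome biogenesis genes just left of it. The 22 classes are a selection and do not show the spread of medians over all lists.

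Lipid-handling genes outside the set-aside lists were split. Apolipoprotein E (apoea) had 4069, 2638 and 4446 CPM in the SBM libraries, against 1748, 1497 and 1399 CPM in the FM libraries (log2 fold change 1.26, SE 0.21, adjusted p = 0.0426). Abcg5, a half-transporter that exports sterols, had 47.4, 28.9 and 34.1 CPM in the SBM libraries, against 100.3, 91.9 and 112 CPM in the FM libraries (log2 fold change -1.46, SE 0.23, adjusted p = 0.0382). Both were clear of overlap, in opposite directions. Hormone-sensitive lipase (lipea) was 2.45-fold higher and crot, a peroxisomal carnitine acyltransferase, 2.0-fold higher. For the 33 genes of fat uptake and lipoproteins the median log2 fold change was -0.30 with all libraries and 0.80 without FM replicate 3, and 2 of these genes were liver-restricted. The intestinal sterol importer npc1l1 had 1126, 120.4 and 488 CPM in SBM and 125, 54.9 and 54.4 CPM in FM (adjusted p = 0.101), with a wide range within SBM.

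The remaining genes past the threshold complete the list. Those higher were vwa11 (25.3-fold, from at most 1.86 CPM in FM), ercc6l (3.08-fold), crip2l (3.32-fold), ogal (2.60-fold), si:dkey-192p21.6 (2.62-fold), si:ch211-235m3.5 (2.22-fold), zgc:152863 (2.17-fold), lta4h (2.01-fold) and si:dkeyp-23e4.3 (1.79-fold). Ercc6l is a mitotic helicase and lta4h makes leukotriene B4. Vwa11 and si:ch211-235m3.5 missed the threshold with the block, at 0.0519 and 0.0527. Those lower were mtfp1, a mitochondrial fission protein (2.46-fold), bnip2 (2.19-fold), cacul1 (1.93-fold) and ammecr1 (1.81-fold).

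Without FM replicate 3, 13 genes passed that had not passed with all libraries, of which 7 were liver-restricted. Hemopexin (hpxb), a blood haem carrier made by hepatocytes, had 4.90, 3.82 and 7.03 CPM in the SBM libraries, against 0.246, 0.0264 and 6361 CPM in the FM libraries. Its log2 fold change was -8.66 with all libraries and 5.24 without FM replicate 3. Ahsg1, another hepatocyte plasma protein, had 1.15, 0.976 and 1.31 CPM in SBM and 0.0547, 0.0527 and 1668 CPM in FM, with log2 fold changes of -8.92 and 4.32. Against FM replicates 1 and 2, SBM libraries were higher without overlap in 87.5% of the 16 tested hepatocyte markers, against 17.3% of all tested genes. Of these 16 markers 14 were liver-restricted. A marker near 0 in FM replicates 1 and 2 could pass the low-count filter only if enough other libraries carried it. The filter thus favours a high share, which is no support for a difference. The source of the hepatocyte transcripts in the SBM libraries was not tested. Among the other genes of this set were lamb3, a laminin chain of epithelial basement membrane, with 53.3, 48.4 and 52.7 CPM in SBM and 6.10, 2.32 and 21.2 CPM in FM, and mdkb, a midkine growth factor, with 34.3, 40.9 and 34.1 CPM in SBM and 7.77, 4.69 and 18.1 CPM in FM. Hlfb, a clock-controlled bZIP factor, had 74.5, 65.3 and 89.9 CPM in SBM and 18.6, 22.1 and 37.4 CPM in FM and passed with the block as well (0.0229). Hsh2d, an adaptor of haematopoietic cells, had 6.81, 9.62 and 8.67 CPM in SBM and 30.1, 27.9 and 12.3 CPM in FM. FM replicate 3 was the FM library nearest to SBM in each of these 4 genes, which picking genes that passed on its removal favours.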

How the data were processed

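Intestinal RNA libraries were analysed from the deposited raw read count per gene, which the authors did not normalize. The authors also deposited FPKM values, which were not used for tests. Per the submitters' processing notes fastp, HISAT2, HTSeq, DESeq2 and R 3.2.0 were used, in roles that are not given; the notes name a mouse build while gene symbols are those of fish, so the genome used for alignment is not stated in the sources at hand. Strand-specific counting is not stated, and near-identical gene copies can share reads.

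All 9 libraries were fitted with edgeR 4.0.16 in R 4.3.3 (TMM factors, filterByExpr, robust quasi-likelihood F test, two-sided, Benjamini-Hochberg adjustment over 17731 genes, threshold 0.05, 6 residual degrees of freedom). The contrast was SBM minus FM. Each standard error was the size of the log2 fold change divided by the root of its F value. The script was tested on simulated data. It recovered 6 of 100 genes changed 2-fold and 61 of 100 changed 4-fold, with 6 false calls among 73. A gene that did not pass may therefore still differ. No 2 libraries of a group agreed within sampling noise (chi-square per degree of freedom of at least 56.1).

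Members and gene lists (57 classes, each a written list of symbols) were chosen with earlier results of these data known, so classes are described by counts, non-overlap and medians without a test. Shares without overlap were taken on the TMM-scaled values only. Not all 57 are described. Of those left out, the ubiquitin list had 11.4% above FM without overlap and 11.4% below, and the MAP kinase list 9.6% and 12.0%. The glycolysis and citrate cycle list had 24.2% and 6.45%, and all tested genes had 11.1% and 11.7%. Named genes were those with the smallest p (16 higher, 12 lower), up to 4 per class, and the highest levels in marker and uncalled classes; the other symbol genes past the threshold and the genes that passed without FM replicate 3 were named after their values were seen. Deviations of same-numbered SBM and FM libraries from their group means correlated at 0.227, 0.318 and 0.155. The numbers were therefore treated as pairs in the block fits, while the main fit was unpaired. This pairing comes from the data, since the labels do not say what a number marks. Blocked adjusted p-values are therefore no independent support for genes that missed the threshold in the main fit. Alternatives covered normalization (RLE factors, total counts), DESeq2 1.42.0, low-count filters, each library left out, the 2 groups alone, removal of liver-restricted genes (over 10-fold above all other libraries in FM replicate 3, at least 5 CPM) and the replicate block; total-count scaling and 2 further block fits were chosen after seeing the data. No sequences are given.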

Additional observations from a re-analysis of the deposited data

How the results depend on the processing

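Counts of genes higher and lower in SBM were 79 and 26 with all libraries, 80 and 27 with RLE factors and 61 and 22 without the low-count filter. They were 176 and 72 with the stricter filter, 123 and 46 without liver-restricted genes, 994 and 643 with DESeq2, and 42 and 57 with total-count scaling. Both were 0 on the SBM and FM libraries alone (2769 genes at an unadjusted p under 0.05) and on these without FM replicate 3 (2594 genes). Leaving out 1 library at a time gave 1 to 303 higher and 1 to 121 lower. The counts were 1 and 1 without FM replicate 1, FM replicate 2, SBM replicate 3, Drug replicate 2 or Drug replicate 3, and 27 and 4 without Drug replicate 1. They were 17 and 6 without FM replicate 3, 248 and 55 without SBM replicate 2, and 303 and 121 without SBM replicate 1. The cause was not tested.

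With the replicate block, which follows the pairing of replicate numbers, 210 genes were higher and 85 lower. The block gave 23 and 2 on the SBM and FM libraries alone and 18 and 1 without FM replicate 3. All 105 genes past the threshold kept their direction in every fit that tested them, which their non-overlapping groups had largely set in advance. The hepatocyte genes turned: hpxb was at 5.24 without FM replicate 3 (range -9.25 to 5.24 over the fits without 1 library), 5.24 on the 2 groups alone without it, 5.13 with the block as well, and 2.87 on the 2 groups alone with the block. For ahsg1 these values were 4.32 (range -9.51 to 4.32), 4.32, 4.26 and 1.23. The class median changed sign without FM replicate 3 in 9 of 57 classes, among them complement and coagulation (-2.76 and 0.70), hepatocyte markers (-8.15 and 2.27), mitochondrially encoded genes (-0.17 and 0.02) and regional identity (0.04 and -0.12). At this depth, 32.9 M to 35.5 M counts a library, counting error is large only for genes of low level such as gltpa.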

Other observations

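In 4 further classes no gene passed with edgeR and no block, and with the replicate block 1 gene passed in each of 3 of them, atp1b1b, adma and creb3l3l. With that block 1.18% of all tested genes rose and 0.479% fell. Of 24 tested gut hormone and enteroendocrine genes 12.5% lay above FM without overlap and 0 below, against 11.1% and 11.7% of all tested genes, and their median log2 fold change stood at 0.60, or 0.41 once FM replicate 3 was removed. Neurod1, an enteroendocrine transcription factor, had 14.9, 6.92 and 11.1 CPM in SBM and 6.27, 4.98 and 5.69 CPM in FM (adjusted p = 0.115). Among 77 genes of ion, bicarbonate and water transport, 10 lay above FM without overlap and 7 (9.09%) below. The sodium pump beta subunit atp1b1b had 1542, 1256 and 1522 CPM in SBM and 917, 752 and 756 CPM in FM (adjusted p = 0.0516, blocked 0.0276), and the anion exchanger slc26a6 had 28.7, 32.8 and 29.7 CPM in SBM and 11.8, 9.28 and 8.60 CPM in FM (adjusted p = 0.0535).

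Oxygen-sensing genes included the prolyl hydroxylase egln1a, with 68, 85.5 and 77.1 CPM in SBM and 144, 117 and 115 CPM in FM (adjusted p = 0.0834), and 19.2% of that list of 26 lay below FM without overlap and 7.69% above, where all tested genes had 11.7% and 11.1%. Adma, an adrenomedullin peptide, had 6.85, 21.1 and 11.3 CPM in SBM and 24.8, 48.6 and 38.1 CPM in FM (adjusted p = 0.188, blocked 0.0263). Of 51 regional identity genes 13.7% lay above and 3.92% below, against 11.1% and 11.7% of all tested genes, and the median log2 fold change was 0.04 with all libraries and -0.12 without FM replicate 3. The lipid-responsive factor creb3l3l had 125, 94 and 133 CPM in SBM and 61.5, 51.6 and 71 CPM in FM (adjusted p = 0.0539, blocked 0.0360), and the intestinal homeobox gene cdx1a had 284, 339 and 276 CPM in SBM and 561, 488 and 369 CPM in FM (adjusted p = 0.151).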
